A study of Mus musculus with 32 samples.

Results

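The genes described here encode 8 receptors of natural killer (NK) cells: Ncr1, Klrk1, Klrb1c, Cd244, Cd226, Klrd1, Klrc1 and Klrg1. They were taken by gene symbol from the RNA tables of the study, where they are 8 of 24475 genes, together with every chromatin immunoprecipitation (ChIP-seq) peak that the authors assigned to one of them, 196 of 215616 peaks over 8 lists. The study worked with 2 mouse cell lines, Scid.adh.2c2, which resembles early T-cell precursors, and ILC2/b6, which stands for group 2 innate lymphoid cells (ILC2) and was kept in IL-2, IL-7 and IL-33 (10 ng/ml). For RNA-seq, each line was transduced with sgControl-CFP (the control guide) or with sgBcl11b-CFP (the Bcl11b guide), with 2 libraries in each of the 4 groups. ChIP-seq in either line was directed at 4 factors (Bcl11b, GATA3, Runx1, Runx3), with 2 libraries per factor and line joined in 1 peak list. The labels name no guide for these cells. Whether the libraries of a group came from separate cultures is not stated, and the tests therefore reflect library-to-library spread, which may be technical.

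NK cells read their targets through a balance of activating receptors, many of which signal through small membrane adaptors, and inhibitory receptors, which carry tyrosine motifs that recruit phosphatases. Innate lymphoid cells and some T cells share part of this set. Bcl11b is a zinc finger transcription factor that is needed for commitment to the T lineage, and loss of it in developing T cells is known to bring up NK-type genes. Klrk1, Klrb1c, Klrd1, Klrc1 and Klrg1 are C-type lectin-like receptors encoded on mouse chromosome 6, whereas Ncr1, Cd244 and Cd226 are immunoglobulin-type receptors encoded elsewhere.

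Promoter windows from 250 bases before to 50 bases after the start site are shown for 3 receptors that stand at the centre of the results: Ncr1, which had the largest change of the 8, Klrb1c, which had the most Bcl11b peaks in Scid.adh.2c2, and Cd244, which changed most in ILC2/b6. The windows are from RefSeq (build GRCm38.p6), read 5′ to 3′ on the strand of the gene, with the letters TGTGGT (a Runx motif, searched on both strands, so also ACCACA) in capitals.
Ncr1 (chr7:4337465-4337764, plus strand): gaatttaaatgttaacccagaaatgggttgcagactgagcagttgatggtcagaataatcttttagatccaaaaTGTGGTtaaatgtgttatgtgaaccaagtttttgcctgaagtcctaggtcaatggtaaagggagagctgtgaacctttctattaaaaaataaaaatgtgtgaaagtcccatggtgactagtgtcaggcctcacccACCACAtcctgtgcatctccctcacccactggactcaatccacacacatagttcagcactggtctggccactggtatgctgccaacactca
Klrb1c (chr6:128788592-128788891, minus strand): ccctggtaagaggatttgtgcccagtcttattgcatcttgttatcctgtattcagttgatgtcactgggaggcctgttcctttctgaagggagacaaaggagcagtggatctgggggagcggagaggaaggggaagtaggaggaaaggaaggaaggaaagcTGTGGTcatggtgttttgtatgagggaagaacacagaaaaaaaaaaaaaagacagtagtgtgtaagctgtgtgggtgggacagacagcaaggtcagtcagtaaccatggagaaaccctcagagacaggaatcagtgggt
Cd244 (chr1:171558943-171559242, plus strand, listed in RefSeq as Cd244a): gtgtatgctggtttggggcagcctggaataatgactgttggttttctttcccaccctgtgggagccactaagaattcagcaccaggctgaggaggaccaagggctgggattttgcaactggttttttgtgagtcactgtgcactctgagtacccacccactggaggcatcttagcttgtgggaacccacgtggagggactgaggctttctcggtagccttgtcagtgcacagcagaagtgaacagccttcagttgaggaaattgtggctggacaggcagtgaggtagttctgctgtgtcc
The Ncr1 window held the Runx letters at 2 places, beginning at -176 and -41 relative to the start site, and the Klrb1c window at 1 place, at -89. The Cd244 window did not hold them. Ncr1 had 2 windows in RefSeq, of which only the first listed was searched and is shown. Of the 8 receptors, 5 had a window in RefSeq, and 4 of these 5 held the Runx letters, the others being Klrk1 and Klrc1 with 1 place each. Of 27025 promoter windows of the same length, 16.9% held the Runx letters at least once and 1.84% at 2 or more places. The GATA letters AGATAA or TGATAA, on either strand, were in 1 of the 5 windows (Klrc1) and in 19% of all windows. These are matches of letters and not binding sites.

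The RNA libraries held 34.7 to 43.7 M reads, recovered from the steps of the deposited values. Levels are in RPKM, reads per kilobase of transcript scaled to depth, and fold changes are log2 differences of log2(RPKM + 0.5) ± SE, a scale that understates the change of genes with low levels. Bcl11b, the gene targeted by the guide, was measured at 47.0 and 49.5 RPKM under the control guide and 47.1 and 46.8 RPKM under the Bcl11b guide in Scid.adh.2c2, and at 6.85 and 6.33 against 7.04 and 7.24 RPKM in ILC2/b6. Its mRNA did not pass the test in either line (adjusted p = 0.455 and 0.278, limma), and since an edit by a guide need not lower the mRNA, these levels do not check the labels. Of the T-lineage markers, Cd3e stood at 172 to 174 RPKM in all Scid.adh.2c2 libraries, and in ILC2/b6 Il1rl1, the receptor of IL-33, stood at 306 to 339 RPKM. The 10 ILC2 markers, which include Klrg1, summed there to 8268 and 8435 RPKM in the controls and to 5826 and 5982 RPKM in the guide libraries, and of the 9 tested 1 rose (Klrg1) and 3 fell, the cytokine genes Il5, Il13 and Areg. Of 6 B-lineage markers, Pax5 and Ms4a1 were at 0 in all 8 libraries, whereas Cd79b had 3.63 to 4.27 RPKM and Ebf1 0.623 to 0.913 RPKM in ILC2/b6, and the 6 summed to at most 0.349 RPKM in Scid.adh.2c2. With the Bcl11b guide, the 14 NK effector markers summed to 371 and 378 RPKM in Scid.adh.2c2 against 223 and 209 RPKM in the controls. Gzma made up most of the control sums and fell from 209 and 198 to 100 and 105 RPKM. Of the 8 tested, 2 of them only through the guide libraries, 6 rose and 1, Gzma, fell, with Klra8 at 0 in all libraries. The 10 T-lineage markers summed to 710 and 716 against 982 and 990 RPKM, 2 of the 8 tested having risen and 5 fallen. Over all genes tested, 35.1% were called higher and 22.7% lower in Scid.adh.2c2, and 8.32% and 6.21% in ILC2/b6. The part of the marker shifts in the receptor results was not tested. In bulk RNA, a change in the number of cells that express a gene and a change in RNA per cell cannot be told apart.

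In Scid.adh.2c2 all 8 receptors stood higher in both Bcl11b guide libraries than in both control libraries. Ncr1 and Cd226 reached 37.0 and 41.8 RPKM from 0.2 and 2.03 RPKM (means of 2 libraries). The other 6 stayed near or below 1 RPKM, and their control libraries held between 0 and 9 reads each. Over all genes of the table, 28.5% stood higher in both guide libraries and 17.2% lower, and among genes under 1 RPKM in both control libraries, to which 7 of the 8 receptors belong, 17.5% did and 5.11% stood lower.

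**Figure D1:**
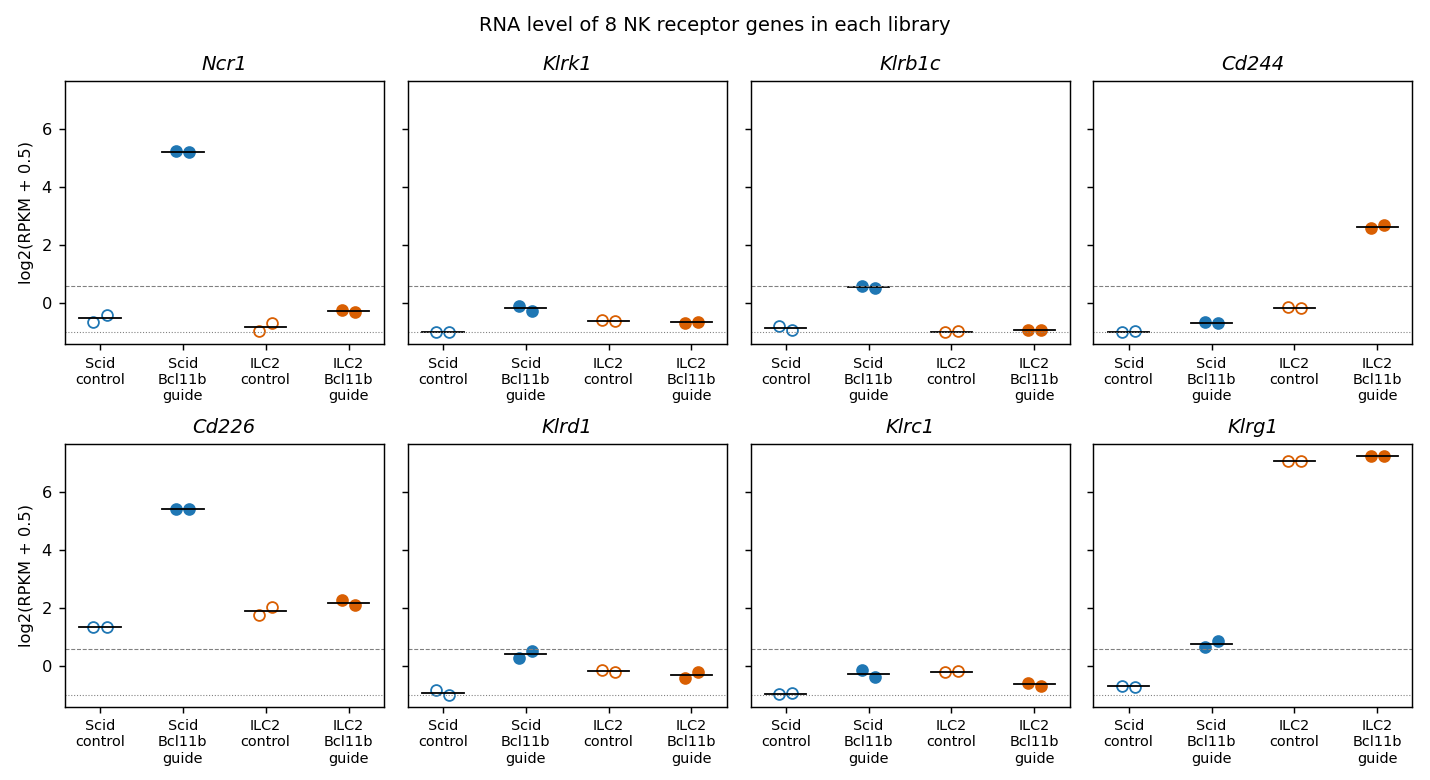
Level of each receptor gene as log2(RPKM + 0.5), 1 point per library (open, control guide; filled, Bcl11b guide), with short bars at the mean of 2 libraries; the dotted line is 0 RPKM and the dashed line 1 RPKM. Ncr1 and Cd226 are high in the Scid.adh.2c2 libraries with the Bcl11b guide, Cd244 in the ILC2/b6 libraries with that guide, and Klrg1 in all 4 ILC2/b6 libraries.

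Of the activating receptors, Ncr1 (NKp46; mm9 chr7:4289326-4296766) was nearly silent under the control guide in Scid.adh.2c2, at 0.142 and 0.258 RPKM from 9 and 13 reads. Under the Bcl11b guide it stood at 37.6 and 36.3 RPKM, from 2235 and 2124 reads. The guide libraries were close to each other and far above the controls. The means were 185-fold apart, the log2 fold change was 5.75 ± 0.10 (limma adjusted p = 3.83e-08), and it ranked 2 of the 10221 genes tested in this line. Without any 1 library it lay between 5.63 and 5.87. Ncr1 passed the filter on levels only through the guide libraries.

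Cd226 (DNAM-1), an activating receptor for the nectin-type proteins Pvr and Nectin2, was the receptor with the highest level in the Scid.adh.2c2 controls, at 2.02 and 2.03 RPKM. With the Bcl11b guide it had 41.5 and 42.1 RPKM. The groups were far apart relative to the spread within each, with means 20.6-fold apart and a log2 fold change of 4.07 ± 0.06 (limma adjusted p = 2.33e-08, rank 32 of 10221).

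Klrk1 (NKG2D; chr6:129560341-129573882) binds stress-induced ligands of the Raet1 and H60 families and signals through Hcst and Tyrobp. It had no read in either Scid.adh.2c2 control library and 56 and 42 reads with the Bcl11b guide, or 0.433 and 0.329 RPKM. Against a floor of 3 reads per control library, 0.0273 RPKM, this was at least 14.0-fold higher. Klrb1c (NK1.1; chr6:128728503-128738659), an activating receptor that marks NK cells in some mouse strains, had 9 and 2 reads in the controls and 106 and 97 reads with the guide. These were levels of 0.079 and 0.022 against 0.993 and 0.922 RPKM, and the ratio of reads per depth was 17.9 (95% counting interval 9.77 to 36.3). Such intervals cover counting error only.

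Cd244 (2B4; chr1:173489324-173515447), a receptor of the SLAM family that binds Cd48, was the lowest of the 8 in the Scid.adh.2c2 libraries with the Bcl11b guide. It had 0 and 1 read in the controls and 20 and 17 reads, or 0.131 and 0.113 RPKM, with the guide. The ratio of reads per depth was 35.8, with a counting interval of 6.04 to 1452, so its size is poorly known.

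Klrd1 (CD94; chr6:129541828-129548793) pairs with Klrc1 (NKG2A; chr6:129616035-129628991) in an inhibitory receptor for the class Ib molecule H2-T23. In Scid.adh.2c2, Klrd1 had 2 and 0 reads in the controls and 25 and 32 reads with the Bcl11b guide, or 0.713 and 0.926 RPKM, a ratio of 27.6 (counting interval 7.29 to 233). Klrc1 had 1 read in each control library and 30 and 20 reads, or 0.392 and 0.265 RPKM, with the guide, a ratio of 24.2 (6.36 to 205). For both chains, the guide libraries stood above the controls by more than counting error. Klrc1 shares sequence with its neighbours Klrc2 and Klrc3, and Klrb1c with other Klrb1 genes, so how reads were divided among these copies is uncertain.

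Klrg1 (chr6:122220619-122232851), an inhibitory receptor for cadherins and a marker of mature ILC2, was at 0.118 and 0.106 RPKM in controls of Scid.adh.2c2 and at 1.07 and 1.29 RPKM with the Bcl11b guide. The groups did not overlap, with means 10.5-fold apart and a log2 fold change of 1.45 ± 0.12 (limma adjusted p = 4.96e-05). It too passed the filter only through the guide libraries. At 1.18 ± 0.154 RPKM (SD, n = 2 libraries) its level can be set beside that in ILC2/b6, where the control libraries had 134 and 133 RPKM. The tables of the lines were normalised separately, so such levels are not tested against each other.

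The test of Scid.adh.2c2 covered 3 of the 8 receptors. Ncr1 and Klrg1 entered it only through the guide libraries, so that their being called higher was tied to their being tested, and Cd226 passed the filter in all libraries. Of all 10221 genes tested there, 57.8% were called at an adjusted p under 0.05 (35.1% higher, 22.7% lower), and 8.43% were called with at least a 2-fold change (6.75% higher, 1.68% lower). Centring each library on its median moved all fold changes of this line by a median of -0.13 and the share of calls that were higher from 60.7% to 38.5% (38.4% with quantile normalisation), and the 3 receptors were called higher under both. The log2 fold change of Klrg1 was 0.71 with quantile normalisation. The other 5 receptors did not reach 1 RPKM in 2 libraries. In the fit without a filter on levels, where 22.9% of 16950 genes were called higher, all 5 were called higher, with log2 fold changes of 1.32 for Klrd1, 0.81 for Klrk1, 0.69 for Klrc1, 1.41 for Klrb1c and 0.30 for Cd244 (limma adjusted p between 0.00138 and 0.00858). With the Bcl11b guide the order of levels in Scid.adh.2c2 was Cd226, Ncr1, Klrg1, Klrb1c, Klrd1, Klrk1, Klrc1 and Cd244. The libraries of Klrb1c and Klrd1 overlapped in level, as did those of Klrk1 and Klrc1.

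In ILC2/b6 the receptors did not move together. Cd244 rose more than 10-fold, Klrg1 was abundant in every library, and the other 6 lay between 0 and 4.29 RPKM. Of the 8 receptors, 5 stood higher in both Bcl11b guide libraries than in both controls, 2 stood lower and 1 overlapped. Over all genes of the ILC2/b6 table, 19.7% stood higher and 14.5% lower. Among genes under 1 RPKM in both controls the shares were 9.98% and 5.28%.

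Cd244 had 0.4 and 0.387 RPKM in the ILC2/b6 control libraries (56 and 51 reads) and 5.55 and 5.92 RPKM with the Bcl11b guide (806 and 776 reads). Each guide library was far above both controls. The means were 14.6-fold apart, and the log2 fold change of 2.80 ± 0.08 (limma adjusted p = 9.33e-06) ranked 5 of 10526 genes tested. Cd244 passed the filter on levels only through the guide libraries. Of these genes, 14.5% were called (8.32% higher, 6.21% lower), and 0.599% were called with at least a 2-fold change (0.485% higher, 0.114% lower).

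Klrg1 had 134 and 133 RPKM in the ILC2/b6 controls and 151 and 151 RPKM with the Bcl11b guide. The libraries within a group were almost equal and the groups did not overlap, but the change was 1.13-fold (log2 0.18 ± 0.03, limma adjusted p = 0.0124). The call was lost without either of the guide libraries (adjusted p = 0.0977 without replicate 1 and 0.0949 without replicate 2) and in a joint fit with the other line (adjusted p = 0.0932).

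Cd226 had 2.88 and 3.60 RPKM in the ILC2/b6 controls and 4.29 and 3.79 RPKM with the Bcl11b guide. The guide libraries stood higher, but by little more than the spread of the controls, and the log2 fold change of 0.28 ± 0.11 did not pass (limma adjusted p = 0.125). It was 0.42 and passed without control replicate 2 (adjusted p = 0.0277). Ncr1 had 1 and 6 reads in the controls and 19 and 16 reads with the guide, or 0.018 and 0.117 against 0.337 and 0.314 RPKM, a ratio of 4.92 (counting interval 2.15 to 13.1). Klrb1c had at most 3 reads in any ILC2/b6 library, so no fold is given.

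Of the inhibitory pair, Klrc1 stood lower with the guide and Klrd1 overlapped between the groups. Klrc1 had 25 reads in each control library and 12 and 8 reads with the Bcl11b guide, or 0.357 and 0.38 against 0.165 and 0.122 RPKM, a ratio of 0.394 (counting interval 0.222 to 0.673). In the fit without a filter, where 1.4% of 16707 genes were called lower, its log2 fold change was -0.43 (limma adjusted p = 0.036). Klrd1 had 0.405 and 0.364 RPKM in the controls and 0.24 and 0.366 RPKM with the guide. Klrk1 had 0.168 and 0.143 RPKM in the controls and 0.122 and 0.134 RPKM with the guide, and its ratio of 0.82 had a counting interval of 0.488 to 1.37, so a difference was not detectable at this depth. In the ILC2/b6 controls the order of levels was Klrg1, Cd226, Cd244, Klrd1, Klrc1, Klrk1, Ncr1 and Klrb1c. The libraries of Klrd1 overlapped there with those of Cd244 and with those of Klrc1, and those of Cd244 stood just above those of Klrc1.

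The fold change differed between the lines for the 4 receptors that could be tested, by the limma interaction of guide and line over all 8 libraries (ILC2/b6 minus Scid.adh.2c2). The difference was -5.20 ± 0.15 for Ncr1 (adjusted p = 1.34e-07), -3.78 ± 0.13 for Cd226 (3.4e-07), -1.27 ± 0.09 for Klrg1 (1.27e-05) and 2.50 ± 0.09 for Cd244 (3.4e-07). Ncr1, Cd226 and Klrg1 thus changed more in Scid.adh.2c2 and Cd244 more in ILC2/b6. Ncr1 entered this test only through the Bcl11b guide libraries of Scid.adh.2c2, and Cd244 only through those of ILC2/b6. For Ncr1 and Cd244, being called here was therefore tied to being tested. Of 11609 genes, 45.1% were called in this contrast (27.1% lower, 18% higher), and 59.0% of calls were higher after median centring against 39.9% as reported, with a median shift of 0.11. The 4 receptors kept their calls and signs in each of the 14 alternatives run, all of which also added a constant to RPKM before the log. In the fit without a filter, where 19.1% of 18540 genes were called lower, the other 4 receptors were called lower, with differences of -1.47 for Klrd1, -1.35 for Klrb1c, -1.12 for Klrc1 and -0.88 for Klrk1 (adjusted p between 9.12e-05 and 0.00109). Klrk1 had different transcript models in the 2 tables.

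**Figure D2:**
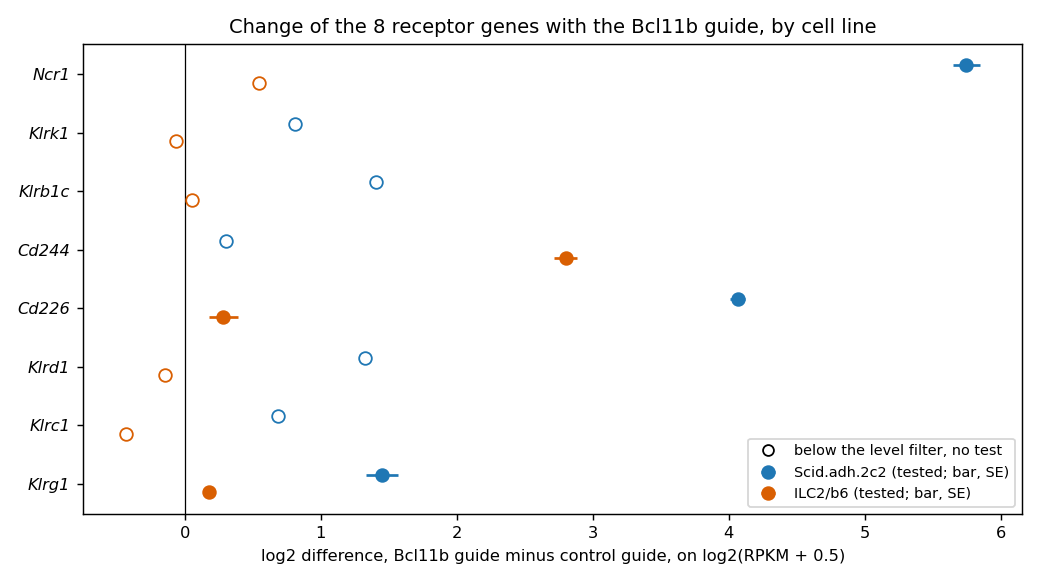
Log2 difference between the Bcl11b guide and the control guide for each receptor gene, on log2(RPKM + 0.5), in Scid.adh.2c2 (blue) and ILC2/b6 (orange); filled points passed the filter on levels and carry an SE bar, open points were below it. All 8 blue points lie above 0, and Cd244 is the receptor with the orange point to the right of the blue one.

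The genes most like each of the changed receptors were found by the smallest Euclidean distance over the 8 RNA libraries of log2(RPKM + 0.5) minus the mean of the controls of the line, among 11599 genes. For Ncr1 they were Gvin1, Gm4070 and Gm8989 (distances 0.486, 0.486 and 0.730). Gvin1 and Gm4070 had nearly equal values in every library, such as 1.27 in the first Scid.adh.2c2 control library, and reads of these 2 genes cannot be told apart here. For Cd226 they were the chemokine gene Ccl5 (0.255), the antiviral gene Rsad2 (0.359) and Gm8979 (0.417). In Scid.adh.2c2, Ccl5 had 1.61 and 1.81 RPKM in the controls and 35.8 and 37.3 RPKM with the Bcl11b guide. For Cd244 they were Tmem119 (0.276), the complement receptor gene C5ar1 (0.324) and the mast cell tryptase gene Tpsb2 (0.483), the last of which was at 0 in all Scid.adh.2c2 libraries and had 5.18 and 5.66 against 44.7 and 44.9 RPKM in ILC2/b6. For Klrg1 they were Gm973 (0.114), C1qtnf6 (0.138) and Dopey2 (0.176).

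Many activating receptors of this kind signal through adaptors. Of 18 genes for adaptors and proximal signalling, 14 passed the filter on levels in Scid.adh.2c2: 11 rose, 2 fell and 1 did not pass the test, with a median log2 fold change of 0.43 against 0.05 over all genes tested. After median centring 8 rose and 2 fell. Of the 14, Tyrobp was tested only because the guide libraries passed the filter, and the other 13 had a median of 0.38. Over all genes tested in this line, 35.1% were called higher and 22.7% lower. Fcer1g, the Fc receptor gamma chain that carries signals of Ncr1 and Klrb1c, had 3.09 and 2.43 RPKM in the controls and 47.3 and 51.4 RPKM with the Bcl11b guide (3.94 ± 0.10, limma adjusted p = 1.71e-07). Hcst (DAP10), the adaptor of Klrk1, had 8.92 and 9.05 RPKM against 19.0 and 21.1 RPKM (1.11 ± 0.06, adjusted p = 9e-06). Tyrobp (DAP12) had 0.123 and 0.206 RPKM against 11.3 and 11.2 RPKM. The kinase gene Zap70 had 33.7 ± 0.976 against 60.7 ± 1.06 RPKM (mean ± SD, n = 2, log2 fold change 0.84 ± 0.04). All 4 were separate between groups by far more than their spread.

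In ILC2/b6, 13 of these signalling genes were tested, of which 3 rose, 1 fell and 9 did not pass, with a median of 0.00 against 0.02 over all genes tested. Of the 3 that rose, Sh2d1b1 and Fcer1g were tested only because the guide libraries passed the filter. Over all genes tested in ILC2/b6, 8.32% were called higher and 6.21% lower. Sh2d1b1 (EAT-2), an adaptor that binds the tail of Cd244, had 0.137 and 0.112 RPKM in the controls and 1.32 and 1.32 RPKM with the Bcl11b guide (1.54 ± 0.12, limma adjusted p = 0.000363). It stood higher in both guide libraries, as Cd244 did, and from 13 and 10 reads it reached 130 and 117 reads. Fcer1g had 0.822 and 0.437 RPKM against 2.54 and 3.29 RPKM (1.61 ± 0.18, adjusted p = 0.0018). Lcp2, a scaffold of signalling complexes, fell by 0.30 ± 0.04 and Plcg2, a phospholipase, rose by 0.25 ± 0.05, the latter not passing without either guide library.

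Of the 19 listed genes for ligands of the receptors and their partners, 4 were tested in Scid.adh.2c2 and called higher, with a median of 1.80. Clec2d was tested only because the guide libraries passed the filter, and the other 3 had a median of 1.91. Over all genes tested in this line, 35.1% were called higher and 22.7% lower. H2-T23, the ligand of the Klrd1 and Klrc1 pair, had 21.2 and 17.0 RPKM in the controls and 106 and 107 RPKM with the Bcl11b guide (2.45 ± 0.09, limma adjusted p = 8.79e-07). B2m, the light chain of class I molecules, had 266 and 240 against 960 and 945 RPKM (1.91 ± 0.06). Pvr, a ligand of Cd226, had 1.73 and 1.68 against 3.61 and 3.55 RPKM (0.89 ± 0.08). Clec2d, a ligand of another receptor of the Klrb1 family and not of Klrb1c, rose by 1.69 ± 0.13. In ILC2/b6, 6 were tested, of which Pvr rose, from 2.78 and 2.91 to 3.62 and 3.57 RPKM (0.29 ± 0.07, adjusted p = 0.0329), and 5 did not pass. The Pvr call was lost in 5 of the 11 alternatives run. Among all genes tested in ILC2/b6, 8.32% were called higher and 6.21% lower.

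Of 34 other NK receptor genes in the table, 5 were tested in Scid.adh.2c2 and called higher (median 1.14), 4 of them also after quantile normalisation. Cd69, Cd200r1 and Klrb1f were tested only because the guide libraries passed the filter, and the other 2, Cd160 and Ly9, had a median of 0.99. Among all genes tested in Scid.adh.2c2, 35.1% were called higher and 22.7% lower. Cd69, an early activation antigen, had 0.227 and 0.196 RPKM against 2.70 and 2.86 RPKM (2.21 ± 0.10), and Cd200r1, an inhibitory receptor, rose by 2.25 ± 0.11. Cd160, a receptor of the immunoglobulin type, had 4.59 and 5.51 against 10.8 and 11.7 RPKM (1.08 ± 0.09), and Klrb1f, a relative of Klrb1c, 0.192 and 0.26 against 1.04 and 1.16 RPKM (1.14 ± 0.11, but 0.34 with an adjusted p of 0.0623 after quantile normalisation). Of the 34, 32 were under 1 RPKM in both controls, and 21 of these stood higher in both guide libraries and 1 lower, against 17.5% and 5.11% of all genes at such levels. Some of the 21 had only 1 or 2 reads in each guide library, such as Klra5, Klra9 and Havcr2. In ILC2/b6, 6 were tested, of which 1 rose, 1 fell and 4 did not pass, where 8.32% of all genes tested were called higher and 6.21% lower. Fcgr3, the receptor of antibody-dependent killing, rose from 6.48 and 6.06 to 13.2 and 13.1 RPKM (1.01 ± 0.05). Ly9, a SLAM family neighbour of Cd244, fell by 0.47 ± 0.09 (limma adjusted p = 0.0143). The Ly9 call was kept in 9 of the 11 alternatives run.

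Of 11 NK lineage factors in the table, 8 passed the filter in Scid.adh.2c2, and 7 rose while 1 did not pass the test (median 1.42). Prdm1 was among them only because the guide libraries passed the filter, and of the other 7 factors 6 rose (median 1.13). Among all genes tested in Scid.adh.2c2, 35.1% were called higher and 22.7% lower. Tbx21 (T-bet) had 3.86 and 3.82 RPKM in the controls and 55.0 and 56.9 RPKM with the Bcl11b guide (3.70 ± 0.05), and Id2 had 47.7 and 43.2 against 214 and 218 RPKM (2.24 ± 0.05). Runx3 rose by 2.34 ± 0.07 and Prdm1 by 1.71 ± 0.11. In ILC2/b6, Tbx21 had at most 1 read in any library. There 8 factors were tested, of which Stat4 rose by 0.38 ± 0.09, Prdm1 fell by 0.25 ± 0.05, Ets1 fell by 0.18 ± 0.04 and 5 did not pass. The calls of all 3 were lost in 1 to 3 of 11 alternatives. Among all genes tested in ILC2/b6, 8.32% were called higher and 6.21% lower. The lists and the receptors were chosen with results of these data known, so their counts are a description.

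**Figure D3:**
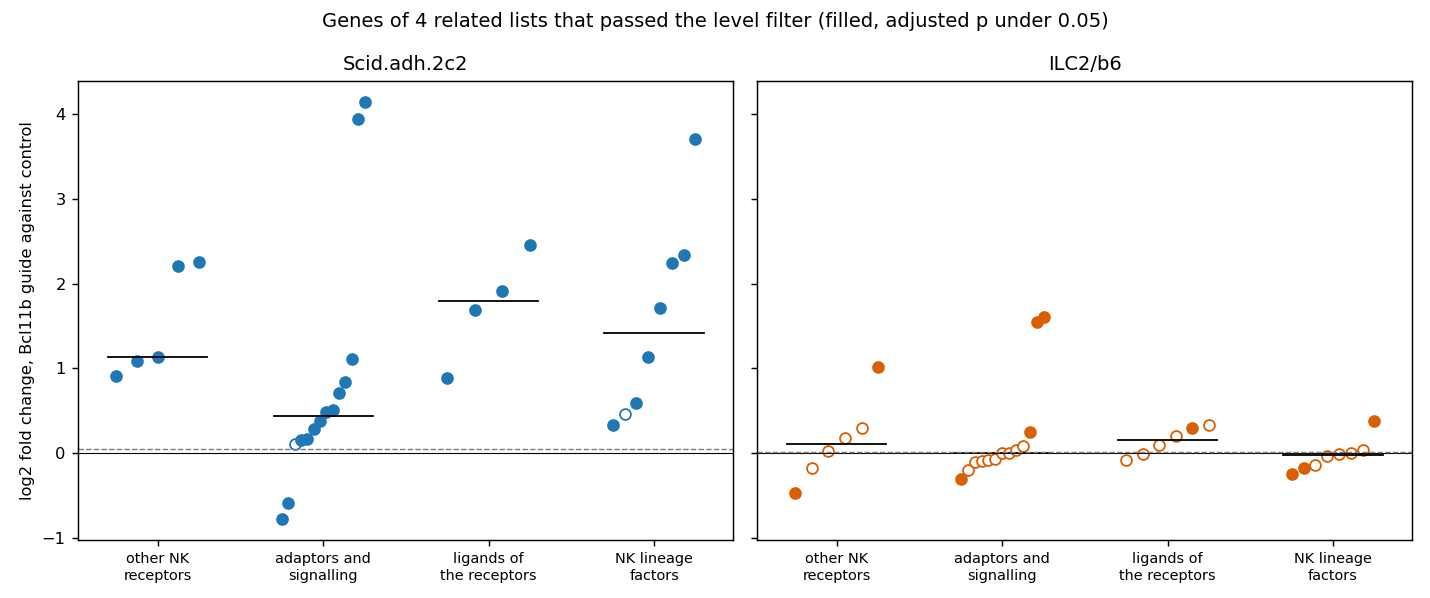
Log2 fold change of the genes of 4 related lists that passed the filter on levels in Scid.adh.2c2 (left) and ILC2/b6 (right), 1 point per gene, filled where the adjusted p was under 0.05; bars are list medians and the dashed line is the median of all genes tested (0.05 and 0.02). List medians lie between 0.43 and 1.80 on the left and between -0.02 and 0.15 on the right.

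The peak lists place the 4 factors around these genes in cells with no guide named. Bcl11b peaks were assigned to 3 of the 8 receptors in Scid.adh.2c2 (Klrb1c, Cd226 and Cd244) and to 4 in ILC2/b6 (Klrg1, Cd226, Cd244 and Klrk1). Over all genes of the RNA tables, 37.8% had a Bcl11b peak in Scid.adh.2c2 and 39.2% in ILC2/b6. For GATA3, Runx1 and Runx3 these shares were 54%, 33% and 42.1% in Scid.adh.2c2 and 50.2%, 41.4% and 57.7% in ILC2/b6. In all, the receptors had 10 Bcl11b, 21 GATA3, 6 Runx1 and 18 Runx3 peaks in Scid.adh.2c2 and 26, 42, 29 and 44 in ILC2/b6. Peak scores are the authors' and are compared only within a list, where the lowest is 15 or 15.1. Distances of assigned peaks are from the start site in the authors' annotation to the peak, in bp, and negative before it. Distances of peaks under any gene name are given without a sign, from the 5′ end of the transcript in the RNA tables. With 1 list per factor and line there is no replicate of any peak count.

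**Figure D4:**
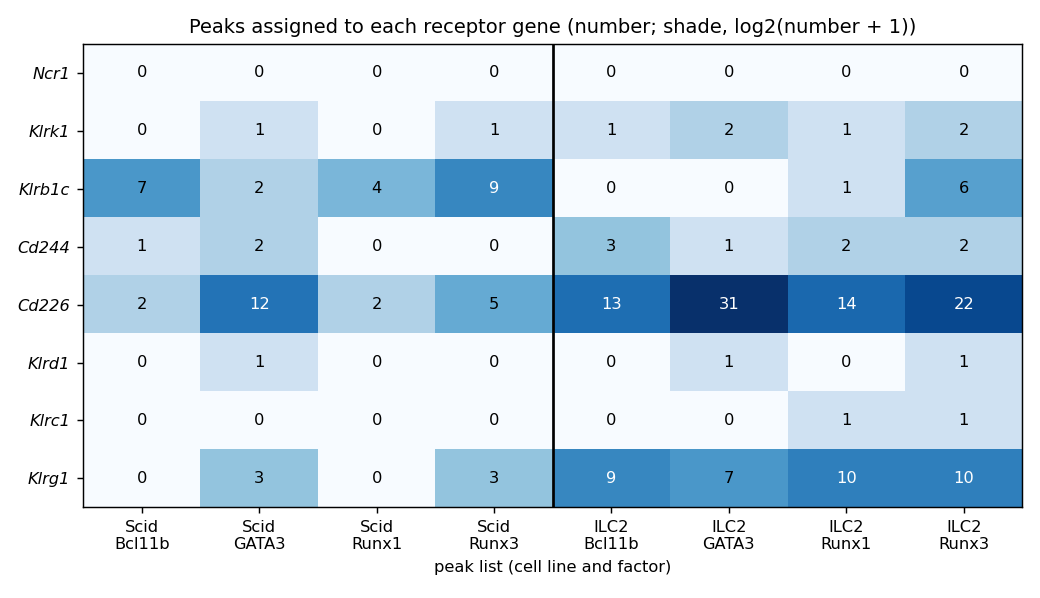
Number of peaks the authors assigned to each receptor gene in each of the 8 lists, with darker shade for more peaks. Ncr1 has 0 in every list, Klrb1c has its Bcl11b peaks in Scid.adh.2c2 (7), Klrg1 has its Bcl11b peaks in ILC2/b6 (9), and Cd226 has the most peaks (21 and 80).

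Ncr1, whose change in Scid.adh.2c2 was the largest of the receptors, had no peak of any factor in either line. No peak of any list lay within 50000 bp of its start site under any gene name. The nearest lay 82665 bp away (Runx3) in Scid.adh.2c2 and 76881 bp away (GATA3) in ILC2/b6, and the nearest Bcl11b peaks 89698 and 163229 bp away. Klrd1 and Klrc1 had no Bcl11b peak assigned in either line. In Scid.adh.2c2 the nearest Bcl11b peak under any gene name was 241870 bp from Klrd1, 273924 bp from Klrk1 and 329033 bp from Klrc1. In ILC2/b6 it was 16733 bp from Klrd1 and 18422 bp from Klrc1. Klrd1 had 1 GATA3 peak in each line, 8352 and 8376 bp from its start and overlapping between the lines. It also had 1 Runx3 peak in ILC2/b6 alone, at -2325, with a score of 17.6. Klrc1 had 1 Runx1 and 1 Runx3 peak in ILC2/b6 alone, 1688 and 1701 bp from its start.

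Klrb1c was the receptor with the most Bcl11b peaks in Scid.adh.2c2, 7, and it had none assigned in ILC2/b6. All 7 were intergenic, with the nearest at -7810 and the farthest at 28525. The highest score was 43.6 at chr6:128753160-128753396 (mm9), at -14619, followed by 37.5 at chr6:128716923-128717159 and 32.5 at chr6:128714296-128714532, at 21618 and 24245. Of the 7, 6 overlapped a Runx3 peak, 3 a Runx1 peak and 1 a GATA3 peak of the same line. Of the 9 Runx3 peaks of Klrb1c in Scid.adh.2c2, 5 overlapped a Runx3 peak in ILC2/b6, where Klrb1c had 6. The Runx3 peaks around this gene were thus partly shared by both lines, and the Bcl11b peaks assigned to it were listed in 1 of them. Under any gene name, 7 Bcl11b peaks of Scid.adh.2c2 and 1 of ILC2/b6 lay within 50000 bp of its start. The peak of ILC2/b6, 35598 bp away, was assigned to Klrb1b.

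Klrg1 had the reverse pattern, with 9 Bcl11b peaks assigned in ILC2/b6 and none in Scid.adh.2c2. The highest scored 74.9, at chr6:122224625-122224879 in intron 3 of 4, 8099 bp after the start site, above 92.6% of that list. The next were 43.2 at chr6:122212637-122212891 and 37 at chr6:122220188-122220442, the latter at the end of the gene. Bcl11b peaks also lay at the start of the gene, at 66 (chr6:122232658-122232912, score 18) and at -826 (chr6:122233550-122233804, score 20). Within 1000 bp of the start there were also peaks of GATA3 (at 737 and -192), of Runx1 (at -96 and -886) and of Runx3 (at -84 and -867) in ILC2/b6. Of the 9 Bcl11b peaks, 5 overlapped peaks of all 3 other factors. In Scid.adh.2c2 Klrg1 had 3 GATA3 and 3 Runx3 peaks, none within 1000 bp of its start. Under any gene name, 12 Bcl11b peaks of ILC2/b6 and 1 of Scid.adh.2c2 lay within 50000 bp of the Klrg1 start. The peak of Scid.adh.2c2, 25968 bp away, was assigned to M6pr.

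Cd244 had 3 Bcl11b peaks in ILC2/b6, all in intron 1, at chr1:173490217-173490471, chr1:173491414-173491668 and chr1:173492090-173492344, which is 1020, 2217 and 2893 bp after the start site, with scores of 32.4, 33.6 and 37.4. The first overlapped a GATA3 peak centred 981 bp after the start (chr1:173490161-173490449), a Runx1 peak at 985 bp (chr1:173490177-173490441) and a Runx3 peak. The second overlapped none of them. In Scid.adh.2c2 Cd244 had 1 Bcl11b peak, at chr1:173497052-173497288 in the same intron, 7846 bp after the start, with a score of 16 near the lower limit of the list, and no Runx peak.

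Cd226 had 2 Bcl11b peaks in Scid.adh.2c2, both in its intron 3, 36455 and 48306 bp after the start site (scores 15.1 and 23.3), and 13 in ILC2/b6. The first of them overlapped a Bcl11b peak of ILC2/b6 36374 bp after the start (score 45.4), and this was the single Bcl11b site of any receptor found in both lines. Of the 80 peaks assigned to Cd226 in ILC2/b6 over the 4 factors, 51 lay in introns of Dok6 and 9 in Rttn, the genes on either side, and 17 in Cd226 itself or its promoter. Within 50000 bp of the start site, ILC2/b6 held 3 of the 13 Bcl11b peaks. A GATA3 peak lay at -219 in Scid.adh.2c2 and at -220 in ILC2/b6, the only peak within 1000 bp of a receptor's start that was listed in both lines.

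Klrk1 had 1 Bcl11b peak in ILC2/b6, at chr6:129558434-129558688, 14140 bp after the start site and beyond the end of the gene, with a score of 23.1. It overlapped GATA3, Runx1 and Runx3 peaks of that line. In Scid.adh.2c2 a GATA3 and a Runx3 peak lay at the same place, each overlapping the peak of the same factor in ILC2/b6. At the start of Klrk1 in that annotation, which is not the outer end of the transcript in the RNA tables, there were a GATA3 peak (at -13, chr6:129572570-129572858, score 15.8) and a Runx3 peak (at -54, chr6:129572629-129572881, score 21.7) in ILC2/b6 alone.

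**Figure D5:**
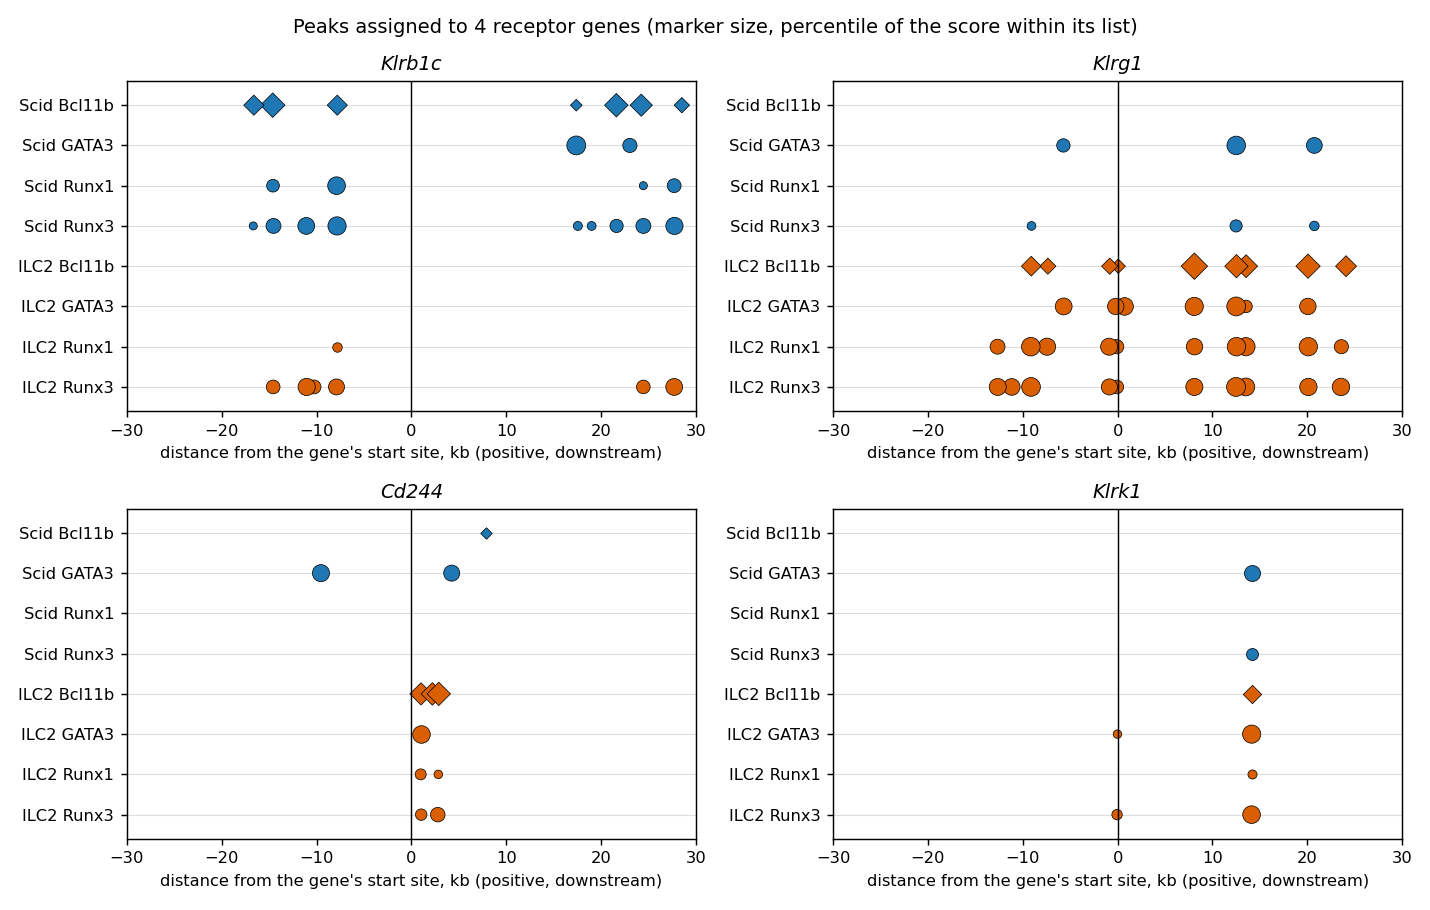
Peaks assigned to Klrb1c, Klrg1, Cd244 and Klrk1 by distance from the start site of the gene in kb, 1 row per line and factor; diamonds are Bcl11b, circles the other factors, and larger markers have a higher percentile of the score within their list. Bcl11b rows are filled for Klrb1c in Scid.adh.2c2 (7 peaks) and for Klrg1 in ILC2/b6 (9 peaks).

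Of the 10 Bcl11b peaks of the receptors in Scid.adh.2c2, 8 overlapped a Runx3 peak, 4 a Runx1 peak and 2 a GATA3 peak, where the whole Bcl11b list of that line had 73.5%, 61.2% and 19.3%. Of the 26 in ILC2/b6, 22 overlapped a Runx3 peak, 20 a Runx1 peak and 17 a GATA3 peak, against 85%, 71% and 35% of the whole list. The share with GATA3 in ILC2/b6 was 65.4%, and 10 of these 17 peaks were those of Cd226. Overlap with Bcl11b peaks of the other line was 1 of 10 and 1 of 26, where the whole lists had 43.1% and 35.6%. Peaks of 1 gene are not independent of each other, and these shares are a description.

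Set beside the RNA, the receptors fell into no single arrangement. Ncr1 changed 185-fold in Scid.adh.2c2 with no listed peak nearby, and Cd226 changed 20.6-fold there with 2 Bcl11b peaks in an intron. Klrb1c, with 7 Bcl11b peaks in that line, had 17.9 times as many reads per depth with the guide (counting interval 9.77 to 36.3), at levels under 1 RPKM. In ILC2/b6, Klrg1 with 9 Bcl11b peaks changed 1.13-fold, and Cd244 with 3 changed 14.6-fold. What these arrangements owe to binding was not tested.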

How the data were processed

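RNA-seq (8 libraries) and ChIP-seq (16 libraries) of 2 mouse lines were used, and inputs were not used here. The authors deposited RPKM values per gene, 1 table per line, and 8 peak lists with a score per peak, each made from both replicates and annotated with HOMER on mm9, per the file headers. Per the submitters' processing notes the tools named are STAR 2.4.0 and RSEM 1.2.25, edgeR 3.6.8, Trimmomatic, Bowtie 1.1.1 and HOMER, with builds mm9 and NCBIM37; the step each tool served is not stated there. Single reads of 50 nt came from a kit not named as marking strand, so overlapping antisense genes cannot be told apart. Low RPKM values gave whole reads (100% of those tested, 1558 to 1965 per library, within 0.1 read), hence the depths and read numbers.

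Genes reaching 1 RPKM in 2 or more libraries were tested with limma 3.58.1 (R 4.3.3, trend fitted over mean level) on log2(RPKM + 0.5), with p-values adjusted by Benjamini-Hochberg, called at an adjusted p under 0.05, within each line and as an interaction, after tests on simulated data. Counting intervals are exact at 95%. Peak overlap means at least 1 bp. All 8 receptors are named, and of each other list up to 4 called genes with the largest changes per line. Receptors and lists were chosen with earlier results of these data known. Other list genes of the marker sets, such as myeloid, mast, erythroid and stromal genes, are given in the closing section.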

Additional observations from a re-analysis of the deposited data

Results flagged for a closer look

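On the scale of log2(RPKM + 0.5), the effect of the Bcl11b guide differed between the lines for the 4 receptors tested past the filter on levels. Of 11609 genes, 45.1% were called in this contrast (27.1% lower, 18% higher). By the limma interaction (ILC2/b6 minus Scid.adh.2c2) the difference in log2 fold change was -5.20 for Ncr1, -3.78 for Cd226, -1.27 for Klrg1 and 2.50 for Cd244. Ncr1 and Cd244 each passed the filter only through the Bcl11b guide libraries of the line where they were high. Their calls were therefore tied to their being tested. By reads per depth, the Cd244 ratio in Scid.adh.2c2 was 35.8 (counting interval 6.04 to 1452), against means 14.6-fold apart in ILC2/b6. A larger ratio for Cd244 in ILC2/b6 was not shown. Klrk1 and Klrc1 stood higher in both guide libraries of Scid.adh.2c2 and lower in both of ILC2/b6. Their differences of -0.88 and -1.12 were not tested in the fit of genes past the filter on levels, and in the fit without that filter their adjusted p values were 0.000618 and 0.000704. Klrd1 and Klrb1c, which did not stand lower in both guide libraries of ILC2/b6, were also called in that unfiltered fit (-1.47 and -1.35, limma adjusted p = 0.00109 and 9.12e-05). Among 18540 genes, 19.1% were called lower in it. For Klrb1c the counting intervals of the ratio overlapped between the lines (9.77 to 36.3 in Scid.adh.2c2, 0.55 to 233 in ILC2/b6), so a difference in its ratio was not shown.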

How the results depend on the processing

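Groups of 2 libraries and levels of a few reads limit these results. The receptor fold changes kept their direction in every alternative run. Of the single-gene values, 391 stayed on the same side of the threshold, 19 lost a call and 12 gained one. Without a filter on levels, 8 receptors were called higher in Scid.adh.2c2, as were 22.9% of 16950 genes. In ILC2/b6, 1 receptor was called lower, as were 1.4% of 16707 genes, and 615 genes were called in all. In the interaction 7 receptors were called lower, as were 19.1% of 18540 genes. In the joint fit 1 receptor was called higher in ILC2/b6. Leaving out 1 library gave 3760 to 6878 called genes in Scid.adh.2c2 against 5908, 807 to 2099 in ILC2/b6 against 1530, and 1 to 3 receptors called higher in ILC2/b6 against 2. The low values came without a guide library: 3818 and 3760 genes in Scid.adh.2c2 and 923 and 807 in ILC2/b6 without replicate 1 and 2.

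Replicate numbers did not pair the libraries: deviations of same-numbered libraries correlated at 0.04 in Scid.adh.2c2 and 0.11 in ILC2/b6, and the labels name no shared batch. With the replicate block 5921 genes were called in Scid.adh.2c2, 2258 in ILC2/b6 and 4875 in the interaction. In ILC2/b6 the block gave 3 receptors called higher, Cd226 being added (adjusted p = 0.0467), and it changed no other receptor call.

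Among the peaks above the median score of each list, the receptors had 3 Bcl11b peaks (on 1 receptor), 13 GATA3, 2 Runx1 and 6 Runx3 peaks in Scid.adh.2c2, and 11, 24, 15 and 18 in ILC2/b6. Within 50000 bp of the start site there were 16 Bcl11b, 16 GATA3, 17 Runx1 and 28 Runx3 peaks in ILC2/b6.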

Other observations

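Several other genes of the lectin-like receptor families were without a read in both controls of Scid.adh.2c2 and had some reads under the Bcl11b guide. Klra7 had 0.505 and 0.35 RPKM, Klra1 0.251 and 0.225 RPKM and Klri1 0.207 and 0.18 RPKM in the guide libraries. In ILC2/b6, Klrc2 stood at 0.191 and 0.244 RPKM in the controls and 0.074 and 0 RPKM with the guide, lower as Klrc1 was. These genes were named after their values were seen, none was tested, and their reads may be shared with near-identical copies.

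Markers of other cell types moved in some groups. In Scid.adh.2c2 the mast markers summed to 62.7 and 63.0 RPKM with the Bcl11b guide against 23.6 and 21.4 RPKM, the erythroid markers to 4.04 and 4.32 against 0.409 and 0.690, the myeloid markers to 5.79 and 5.52 against 3.45 and 3.08, the stromal markers to 1.41 and 1.31 against 5.53 and 5.97, and the ILC2 markers to 109 and 113 against 105 and 109 RPKM. In ILC2/b6 the NK effector markers summed to 5744 and 5989 against 5741 and 5907 RPKM. The mast markers of that line summed to 87.2 and 88.7 against 27.2 and 27.9 RPKM, the erythroid markers to 27.3 and 27.2 against 17.0 and 15.3, and the myeloid, stromal, T-lineage and B-lineage markers each to at most 5.03 RPKM in any library. The part of these markers in the receptor values was not tested.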
